A study of Mus musculus with 12 samples.

Results

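The 6 genes Ywhab, Ywhae, Ywhag, Ywhah, Ywhaq and Ywhaz, which encode the 14-3-3 proteins beta, epsilon, gamma, eta, theta and zeta, were picked by symbol out of 29879 genes counted in mouse cortex. All 6 passed the expression filter, as did 13404 genes in all. The mice were of the SNAP25 BacTRAP line and at postnatal day 21, and their cortex RNA was sequenced in 4 groups of 3 libraries. SynapTRAP is the GFP immunoprecipitate of ribosomes from the SN band of a sucrose and Percoll gradient, and SNF is that band without immunoprecipitation. TRAP is the GFP immunoprecipitate of ribosomes from cortex, and WCH is cortex RNA that served as the control. All groups carry the same transgene, whose name points to the neuronal gene Snap25 as its driver, so there is no library from mice without it. In such a line a ribosomal protein tagged with GFP is made in the driver's cells, and translating ribosome affinity purification (TRAP) then recovers the mRNA on those ribosomes. The labels do not say whether replicates came from separate animals, so p-values measure only the spread between these libraries, which may be technical.

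14-3-3 proteins are small, acidic adaptor proteins that form dimers and dock onto partner proteins at short motifs carrying a phosphorylated serine or threonine. Binding can hold an enzyme inactive, keep a transcriptional regulator in the cytoplasm, or help a membrane protein leave the endoplasmic reticulum. They are among the abundant soluble proteins of brain, where they occur in cell bodies and at synapses, and the paralogs can form mixed dimers with one another.

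The paralogs are alike enough in their coding sequence that the specificity of the counts matters, so the most alike stretch of 60 coding bases is shown for each gene. The sequences were read from the GENCODE M21 transcripts (GRCm38), run 5′ to 3′ on the coding strand, and lie at coding bases 34 to 93 of Ywhaz, counted from the first base of the start codon. Capitals mark bases that differ from Ywhaz.
Ywhaz: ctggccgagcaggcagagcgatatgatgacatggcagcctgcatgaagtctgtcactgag
Ywhab: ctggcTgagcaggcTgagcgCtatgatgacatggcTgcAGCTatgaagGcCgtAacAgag
Ywhae: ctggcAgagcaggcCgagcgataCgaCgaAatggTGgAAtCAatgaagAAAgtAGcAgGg
Ywhag: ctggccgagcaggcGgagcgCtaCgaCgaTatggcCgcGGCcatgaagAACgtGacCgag
Ywhah: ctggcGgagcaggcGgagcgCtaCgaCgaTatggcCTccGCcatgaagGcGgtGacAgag
Ywhaq: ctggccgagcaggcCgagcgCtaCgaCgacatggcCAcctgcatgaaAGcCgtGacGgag
Even in this window 38 of 60 positions were identical in all 6 genes, and each gene differed from Ywhaz at 11 to 18 positions. Ywhaq was the nearest to Ywhaz here and Ywhae the farthest. Over the whole coding sequence Ywhag and Ywhah shared the most bases (78.95% identity), followed by Ywhab and Ywhaz (75.1%). Ywhae shared only 61.5% to 63.41% with any of the others. No run of 50 bases was identical between the representative transcripts of any of these genes, so a read of that length that matches exactly belongs to 1 paralog.

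The genes do differ in how much sequence they share with loci outside the family. In Ywhab and Ywhae no run of 50 transcript bases occurred exactly in a transcript of another gene. In Ywhag 0.461% of the runs did, none of them coding. For Ywhah, 18.6% of the runs and 46.1% of the coding runs occurred in Gm12428. For Ywhaz, 19.9% of the runs and 93.5% of the coding runs occurred in 3 other annotated genes, and for Ywhaq 37.8% and 95.4% occurred in 11 others, Ywhaq-ps2 and Ywhaq-ps3 among them. Of these 15 other genes 2 have a row in the deposited counts. Cdk5rap2, a protein-coding gene of the centrosome and no 14-3-3 copy, had at most 204 counts in a library, and Gm4419 had at most 20. The levels of Ywhaq, Ywhaz and Ywhah are therefore uncertain. Reads without a unique alignment were 14.4% to 28.9% of a library's reads. They stood in a summary line of the deposited counts, apart from the genes. Reads from the shared runs may thus be missing from the counts of these genes. Gm4419 lies on the opposite strand and overlaps Ywhaq by 248 exon bases, where reads of the 2 genes cannot be told apart without the strand. Gm26836 lies opposite to Ywhae without an exon base in common and had at most 22 counts in any library.

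In GENCODE M21 on GRCm38, Ywhab lies at chr2:163994960-164018588 (plus strand) and Ywhae at chr11:75732869-75765845 (plus strand). Ywhag lies at chr5:135908409-135934616 (minus strand) and Ywhah, on the same chromosome, at chr5:33018816-33027966 (plus strand). Ywhaq lies at chr12:21390071-21417637 (minus strand) and Ywhaz at chr15:36770770-36796929 (minus strand). The representative transcripts code for 245 to 255 amino acids. They differ more in their 3′ untranslated regions, which are 2586 bases long in Ywhag and 771 bases in Ywhah, the pair with the most similar coding sequence.

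Levels are given as CPM, a gene's count relative to the size of its library after scaling by the trimmed mean of M-values (TMM). Gene counts were 4368881 to 14335089 per library. Mitochondrially encoded RNA took 82.2% to 87.3% of them in SNF and 20.4% to 63.3% in SynapTRAP, against 0.930% to 5.43% in TRAP and 33.6% to 50.9% in WCH. Members had 100 to 16832 counts in a library. Neuron markers (20 genes, counted as higher or lower by the test described below) summed to 12349 to 18760 CPM in TRAP against 11681 to 12697 in WCH, with none at 0, and 8 of the 20 were higher in TRAP and 0 lower. Of 20 markers each, 12 for astrocytes, 13 for oligodendrocytes and 7 for microglia were lower in that contrast. The endothelial list did not fall with them. Of its 15 tested markers 1 was higher and 0 lower (median log2 fold change 1.05). Their sums were 27.7 to 101 CPM in TRAP, highest in replicate 2, and 32.2 to 35.4 CPM in WCH.

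Ywhaz and Ywhae were the most abundant paralogs per length of exon in every library. This length counts all annotated exon bases of a gene and exceeds that of its representative transcript. It was 5500 against 3520 bases for Ywhag and 3709 against 1764 for Ywhah. The order of neighbours can depend on it. In CPM not divided by length, Ywhag was above Ywhab in SNF (means of 300 and 207). Ywhaz was then above Ywhae in SynapTRAP replicates 1 and 2 (439 against 364 CPM and 598 against 478 CPM). In SynapTRAP replicate 3 it was below Ywhae (396 against 464 CPM). Ywhag was above Ywhae in each WCH library (512, 487 and 506 against 420, 478 and 446 CPM). In SynapTRAP the means in CPM per kb of exon were 169 ± 24.2 for Ywhae (SD, n = 3 here and below), 116 ± 25.8 for Ywhaz, 79.8 ± 9.82 for Ywhag, 65.9 ± 12.5 for Ywhab, 16.8 ± 4.50 for Ywhah and 13.1 ± 3.08 for Ywhaq. The ranges over libraries of Ywhae and Ywhaz overlapped there, as did those of Ywhag and Ywhab and of Ywhah and Ywhaq. Within each SynapTRAP library, however, Ywhae was above Ywhaz and Ywhag above Ywhab in these values per kb. Ywhah was above Ywhaq in replicates 1 and 2 and below it in replicate 3. In SNF the means were 126 ± 14.6 for Ywhaz, 124 ± 13.3 for Ywhae, 61.1 ± 3.32 for Ywhab, 54.5 ± 1.40 for Ywhag, 15.5 ± 1.03 for Ywhah and 11.3 ± 2.74 for Ywhaq. The ranges of Ywhaz and Ywhae overlapped, and within a library Ywhae was lower by 0.01 to 0.04 on the log2 scale. Ywhah and Ywhaq were separate only by a narrow margin (14.4 to 16.3 CPM per kb for Ywhah, 8.69 to 14.1 for Ywhaq). In TRAP they were 281 ± 77.5 for Ywhae, 242 ± 30.8 for Ywhaz, 137 ± 37.4 for Ywhag, 89.9 ± 19.2 for Ywhab, 51.5 ± 9.24 for Ywhah and 16.0 ± 3.16 for Ywhaq. The ranges of Ywhae and Ywhaz overlapped, and the lowest Ywhag library met the highest Ywhab library at 103 CPM per kb. In WCH the order was Ywhaz (250 ± 4.53), Ywhae (174 ± 11.2), Ywhag (91.2 ± 2.30), Ywhab (89.2 ± 1.93), Ywhah (38.4 ± 4.52) and Ywhaq (17.9 ± 3.78). Of these neighbours Ywhag and Ywhab overlapped and the others did not. Sfn, which encodes the remaining mammalian 14-3-3 protein, sigma, known mostly from epithelia, had 0 to 6 counts in each of the 12 libraries.

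**Figure D1:**
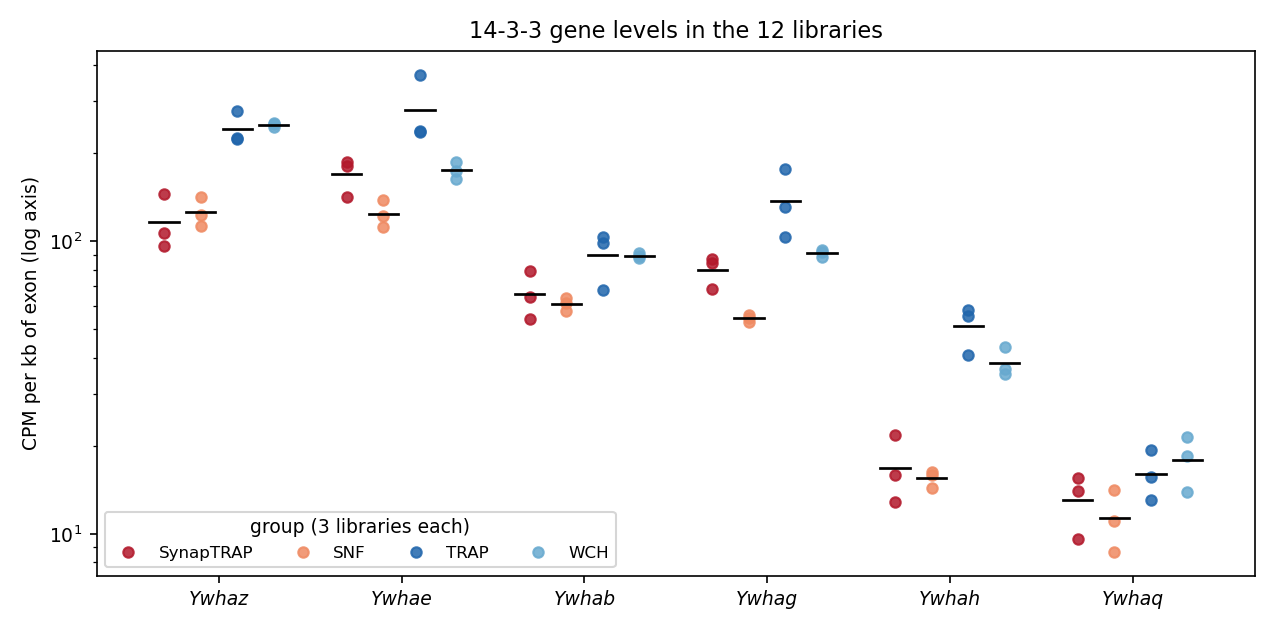
CPM per kb of exon of the 6 genes on a log axis. Each point is 1 library, each line the mean of the 3 libraries of a group, with groups in the order SynapTRAP, SNF, TRAP and WCH. Ywhaz, Ywhah and Ywhag are lower in all SynapTRAP and SNF libraries than in all TRAP and WCH libraries. For Ywhag the margin is narrow (at most 86.7 CPM per kb in SynapTRAP, at least 88.6 in WCH).

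Summed over the 6 genes, the family took 1677 ± 222 CPM in SynapTRAP, 1433 ± 103 in SNF, 3015 ± 336 in TRAP and 2478 ± 49.6 in WCH (SD, n = 3 each). The highest gradient library, SynapTRAP replicate 2, reached 1930 CPM, below the lowest library without the gradient at 2427 CPM. These values are shares of a library, so that fewer cells of a type and less RNA per cell cannot be told apart in them.

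The gradient band was compared with the cortex first (SNF against WCH). All 6 genes had a negative log2 fold change, under each of the scalings tried, and 4 of them fell past the threshold of an adjusted p under 0.05 in edgeR's quasi-likelihood test (Ywhah, Ywhaz, Ywhag and Ywhaq). Of all genes tested, 16.5% fell and 20.6% rose. The median log2 fold change was -0.70 over the 6 genes and -0.25 over all tested genes. Of all called genes 55.5% were higher with TMM scaling and 67.7% with RLE size factors, which moved the median of all genes to -0.12.

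Ywhah, the eta paralog, showed the largest fall of the 6. It had 53.2, 58.8 and 60.6 CPM in SNF replicates 1 to 3, against 135, 131 and 162 CPM in WCH. The highest SNF library was below the lowest WCH library by more than the spread within either group. The log2 fold change was -1.31 (SE 0.23, adjusted p = 0.000165), which is -1.06 relative to the median of all genes. It stayed past the threshold under each alternative, with -1.37 to -1.21 when any 1 library was left out.

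Ywhaz encodes 14-3-3 zeta and is the most abundant paralog of the WCH libraries. It had 506, 464 and 582 CPM in SNF, against 1008, 1042 and 1038 CPM in WCH. The WCH libraries lay close together and all SNF libraries lay far below them. The log2 fold change was -0.99 (SE 0.24, adjusted p = 0.00239), which is -0.74 relative to the median of all genes, and it too stayed past the threshold under each alternative.

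Ywhag, the gamma paralog, in which human variants cause a developmental epileptic encephalopathy, had 301, 307 and 291 CPM in SNF, against 512, 487 and 506 CPM in WCH. The groups did not overlap, and both were tight. Its log2 fold change was -0.74 (SE 0.23, adjusted p = 0.0163). With RLE size factors it was -0.61 and no longer called (adjusted p = 0.0536). The call was also lost without SNF replicate 1 (-0.75) or WCH replicate 1 (-0.62). Without WCH replicate 1 the median of all genes was -0.13, against -0.25 with all libraries.

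The other 3 genes had smaller log2 fold changes. Ywhaq, the theta paralog, had 34.0, 26.6 and 43.3 CPM in SNF, against 56.5, 42.6 and 65.6 CPM in WCH. One SNF library lay above the lowest WCH library. Its log2 fold change of -0.66 (SE 0.25, adjusted p = 0.0433) was lost with RLE size factors (-0.54, adjusted p = 0.0993), in DESeq2, with scaling by neuron markers and without any 1 of 8 libraries (SNF replicates 1 and 2, WCH replicates 1 and 3, SynapTRAP replicate 1 and each TRAP replicate; -0.65 to -0.51).

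Ywhab (beta) had 195, 208 and 217 CPM in SNF, against 296, 300 and 309 CPM in WCH, and Ywhae (epsilon) had 312, 286 and 354 CPM in SNF, against 420, 478 and 446 CPM in WCH. In both genes every SNF library was below every WCH library. Neither was called, with log2 fold changes of -0.55 (SE 0.23, adjusted p = 0.0608) for Ywhab and -0.50 (SE 0.24, adjusted p = 0.102) for Ywhae. Relative to the median of all genes these were -0.30 and -0.25. Ywhab was called in a fit of these 2 groups alone (-0.42, adjusted p = 0.0316). It was also called without SynapTRAP replicate 2 (-0.55, adjusted p = 0.0424) or SynapTRAP replicate 3 (-0.55, adjusted p = 0.0338). These libraries are in neither group and enter through the shared fit, by its filter, scaling, spread and adjustment, which were not tested apart. With total gene counts as scaling both genes were called (-2.89 and -2.85), where the median of all genes was -2.60.

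Markers of other cell types moved in the same contrast. Of 20 markers each, 19 astrocyte, 20 microglia and 13 oligodendrocyte markers were higher in SNF than in WCH, while 4 neuron markers were higher and 5 lower. Summed astrocyte markers were 16746 to 22498 CPM in SNF and 2810 to 3528 CPM in WCH, and summed microglia markers were 464 to 937 CPM in SNF and 129 to 149 CPM in WCH. Oligodendrocyte markers summed to 8555 to 11743 CPM in SNF and 3219 to 4039 CPM in WCH, and neuron markers to 10255 to 11635 CPM in SNF and 11681 to 12697 CPM in WCH. None of the markers of these 4 lists was at 0 in any library. Of 15 tested endothelial markers 3 were higher in SNF and 0 lower, with sums of 79.5 to 116 CPM in SNF and 32.2 to 35.4 CPM in WCH; Emcn was at 0 in 2 SNF libraries, Ly6c1 in 1 SNF library and Cldn5 in 1 WCH library. The part of these markers in the falls was not tested. Scaling by the 20 neuron markers, an alternative chosen after seeing the data, moved the median of all genes only to -0.21 in this contrast. It gave log2 fold changes of -1.26 (adjusted p = 0.000929) for Ywhah, -0.94 (adjusted p = 0.00382) for Ywhaz and -0.70 (adjusted p = 0.026) for Ywhag, and of -0.60 for Ywhaq, which was not called (adjusted p = 0.174).

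The ribosome pull-down from the gradient band was then set against that from cortex (SynapTRAP against TRAP), which shares no library with the preceding contrast but is not independent of it. SynapTRAP was taken from the same kind of band as SNF, and same-numbered libraries of these groups deviated together (correlations of 0.218 to 0.379 between their deviations from the group means). All 6 genes had negative log2 fold changes, with the exception of Ywhaq under scaling by neuron markers (0.18), and Ywhah, Ywhaz, Ywhag and Ywhae fell past the threshold. Of all genes tested, 18.1% fell and 21.6% rose. The median log2 fold change was -0.75 over the 6 genes and -0.02 over all tested genes.

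Ywhah had 59.1, 80.5 and 47.6 CPM in SynapTRAP, against 206, 215 and 152 CPM in TRAP. Its log2 fold change of -1.61 (SE 0.23, adjusted p = 1.83e-05) was lower than that of all but 3.13% of the tested genes. Ywhaz had 439, 598 and 396 CPM in SynapTRAP, against 1144, 922 and 926 CPM in TRAP, with a log2 fold change of -1.06 (SE 0.24, adjusted p = 0.00127). Neither gene's groups overlapped, and both calls were kept under each alternative, with -1.28 for Ywhah and -0.69 for Ywhaz under scaling by neuron markers.

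Ywhag and Ywhae fell less, and with less certainty. Ywhag had 463, 477 and 377 CPM in SynapTRAP, against 567, 717 and 973 CPM in TRAP (log2 fold change -0.78, SE 0.23, adjusted p = 0.0112). Ywhae, whose protein binds the NUDEL protein encoded by Ndel1 in migrating neurons of mouse, had 364, 478 and 464 CPM in SynapTRAP, against 609, 604 and 951 CPM in TRAP (-0.73, SE 0.24, adjusted p = 0.018). In both genes TRAP replicate 3 was the highest library of all. Without it the changes were -0.59 for Ywhag (adjusted p = 0.0559) and -0.52 for Ywhae (adjusted p = 0.0915), and neither was called. The calls were also lost in a fit of these 2 groups alone (-0.72 and -0.67), with scaling by neuron markers (-0.37 and -0.27) and, for Ywhae, without SynapTRAP replicate 1 (-0.64).

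Ywhab had 218, 267 and 183 CPM in SynapTRAP, against 348, 230 and 334 CPM in TRAP, and Ywhaq had 42.8, 29.4 and 47.6 CPM in SynapTRAP, against 59.1, 39.9 and 47.9 CPM in TRAP. The groups overlapped in both genes. The log2 fold changes were -0.45 (SE 0.22, adjusted p = 0.117) for Ywhab and -0.30 (SE 0.25, adjusted p = 0.357) for Ywhaq. Without TRAP replicate 2, the only TRAP library of Ywhab below a SynapTRAP library, Ywhab was called (-0.66, adjusted p = 0.035). With total gene counts as scaling both were called (-1.32 each), where the median of all genes was -0.9998. In this contrast all 20 astrocyte, all 20 microglia and 17 of 20 oligodendrocyte markers were higher in SynapTRAP, and 3 neuron markers were higher and 9 lower. Summed astrocyte markers were 11225 to 19428 CPM in SynapTRAP and 925 to 1817 CPM in TRAP, and microglia markers 294 to 652 CPM in SynapTRAP and 37.5 to 80.9 CPM in TRAP. Oligodendrocyte markers summed to 10731 to 22759 CPM in SynapTRAP and 729 to 7763 CPM in TRAP, and neuron markers to 8001 to 11485 CPM in SynapTRAP and 12349 to 18760 CPM in TRAP. Of 15 tested endothelial markers 2 were higher there and 0 lower. Their sums were 64.0 to 115 CPM in SynapTRAP and 27.7 to 101 CPM in TRAP. The part of all these markers in the falls was not tested.

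**Figure D2:**
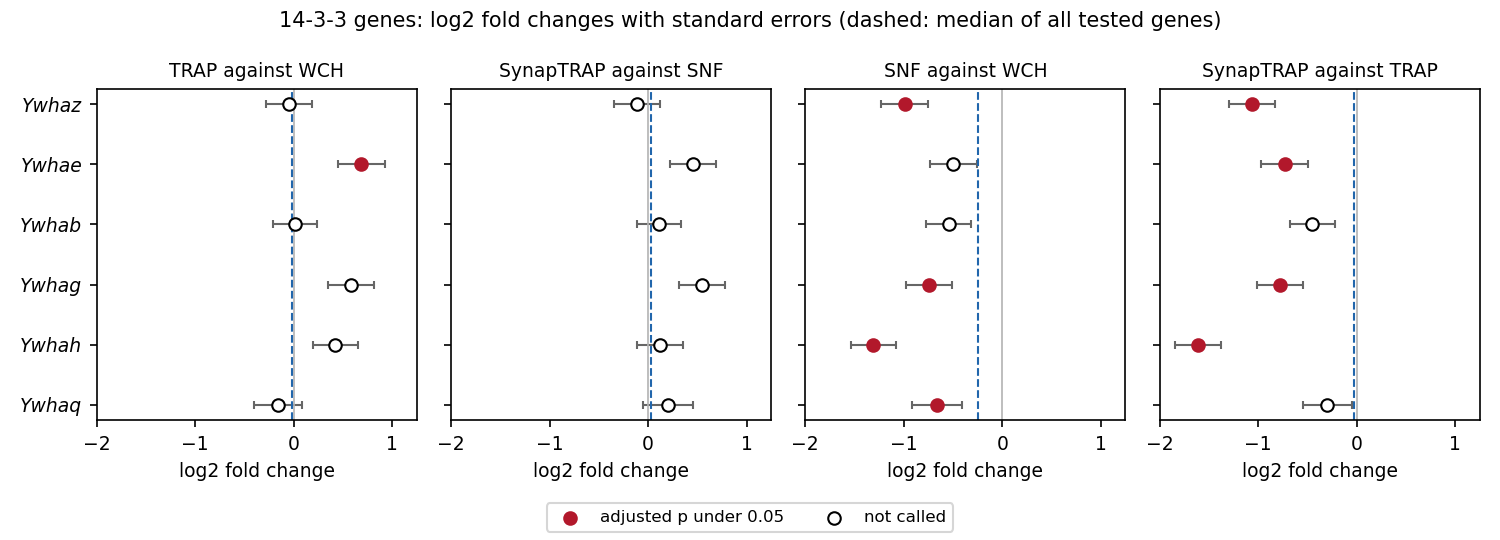
Log2 fold changes of the 6 genes with standard errors in 4 contrasts, from 1 edgeR fit of all 12 libraries; filled points have an adjusted p under 0.05, the solid line is 0 and the dashed line the median of all tested genes. Called genes lie to the left in both contrasts of the gradient band, and Ywhae alone is called in TRAP against WCH, to the right.

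Each pull-down was next compared with the RNA it was taken from. In TRAP against WCH, 1 of the 6 genes was called, Ywhae, which rose. Of all genes tested, 11.1% rose and 10.9% fell. The median log2 fold change was 0.22 over the 6 genes and -0.01 over all tested genes. Ywhae had 609, 604 and 951 CPM in TRAP, against 420, 478 and 446 CPM in WCH, so that every TRAP library was above every WCH library. The log2 fold change was 0.69 (SE 0.24, adjusted p = 0.0409). The call did not hold without TRAP replicate 3 (0.47, adjusted p = 0.189), without any 1 WCH library (0.68 to 0.73, adjusted p from 0.104 to 0.119), without SNF replicate 1 (0.69, adjusted p = 0.0594) or with no expression filter (0.69, adjusted p = 0.0844). Relative to the 20 neuron markers it was 0.20 (adjusted p = 0.595). TRAP replicate 3, the highest for Ywhae and Ywhag, also had the highest sums of neuron (18760 CPM), astrocyte (1817 CPM), oligodendrocyte (7763 CPM) and microglia (80.9 CPM) markers of the TRAP libraries. The mean log2 CPM of the oligodendrocyte markers was 5.24 there and 5.20 in TRAP replicate 1, although their sum in replicate 1 was 2629 CPM. The part of these markers in the rise was not tested.

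Ywhag also lay higher in every TRAP library than in any WCH library (567, 717 and 973 CPM in TRAP, against 512, 487 and 506 CPM in WCH). Its log2 fold change of 0.58 (SE 0.23, adjusted p = 0.0744) did not pass, although it did in DESeq2 (0.61, adjusted p = 0.0215) and in a fit of these 2 groups alone (0.62, adjusted p = 0.044), with total gene counts as scaling (1.13, adjusted p = 0.0299), and without TRAP replicate 1 (0.78, adjusted p = 0.0311) or SynapTRAP replicate 3 (0.59, adjusted p = 0.042). It was smaller without TRAP replicate 3 (0.39, adjusted p = 0.284) and with scaling by neuron markers (0.11, adjusted p = 0.754). Ywhah had 206, 215 and 152 CPM in TRAP, against 135, 131 and 162 CPM in WCH, with overlap in 1 library and a log2 fold change of 0.42 (SE 0.23, adjusted p = 0.185). Ywhab, Ywhaz and Ywhaq lay near 0, at 0.01 (SE 0.22), -0.05 (SE 0.23) and -0.16 (SE 0.24), with adjusted p of 0.974, 0.912 and 0.677 and with overlapping groups. Ywhaz, with 1144, 922 and 926 CPM in TRAP against 1008, 1042 and 1038 CPM in WCH, had its WCH libraries inside the range of its TRAP libraries.

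In SynapTRAP against SNF none of the 6 genes was called by edgeR's test, and none in DESeq2. In edgeR's test 2.29% of all tested genes rose and 1.79% fell. At an unadjusted p under 0.05 it was 1 of the 6 genes and 2623 of all tested genes. Same-numbered libraries of these groups deviated together, and with the replicate number as a block the calls over all genes were 834 in place of 547, still with 0 of the 6. Of all calls 56.1% were higher with TMM scaling and 33.6% with RLE size factors. Of 20 neuron markers 1 was higher in SynapTRAP than in SNF and 0 lower. Of 20 markers each, 0 astrocyte, 3 oligodendrocyte and 1 microglia markers were lower there and 0 higher. Of 15 tested endothelial markers 0 were higher and 0 lower. The part of these markers in the values of the 6 genes was not tested. Ywhag (463, 477 and 377 CPM in SynapTRAP, against 301, 307 and 291 CPM in SNF) and Ywhae (364, 478 and 464 CPM in SynapTRAP, against 312, 286 and 354 CPM in SNF) were higher in every SynapTRAP library. Their log2 fold changes were 0.55 (SE 0.23, adjusted p = 0.191) and 0.46 (SE 0.24, adjusted p = 0.299). The other 4 genes overlapped between the groups, with log2 fold changes of 0.20 for Ywhaq, 0.12 for Ywhah, 0.11 for Ywhab and -0.12 for Ywhaz (SE 0.22 to 0.25). How many of all tested genes had groups without overlap was not counted, here or in the other contrasts. Such a separation is therefore only a description of a gene's values.

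Whether the pull-down acted differently in the band and in cortex was tested as the difference of the 2 pull-down effects. It ran from -0.30 (SE 0.32, adjusted p = 0.665) for Ywhah to 0.37 (SE 0.35, adjusted p = 0.627) for Ywhaq. None of the 6 genes was called in edgeR, by DESeq2, or at an unadjusted p under 0.05, where 2319 of all tested genes lay. Over all genes, 0.865% were called, or 116 genes, and 366 with the replicate block. These misses do not show that the effects were equal, since the standard errors of 0.32 to 0.35 leave room for sizeable differences.

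The make-up of the family can be read within a library, without any scaling between libraries. It and the ratios below may still lack reads from runs shared with other loci, unequally between the genes. Such runs were 93.5% of the coding runs of Ywhaz, 95.4% for Ywhaq and 46.1% for Ywhah, and 0% for Ywhab, Ywhae and Ywhag. Ywhae took 33.2%, 35.2% and 42.2% of the summed counts per kb in SynapTRAP and 31.8%, 30.5% and 32.3% in SNF. It took 29.8%, 32.3% and 39.9% in TRAP and 25.4%, 27.9% and 25.8% in WCH, so every library of the other 3 groups was above every WCH library. Ywhaz took 24.97%, 27.5% and 22.5% in SynapTRAP and 32.2%, 30.8% and 33.1% in SNF. It took 34.9%, 30.7% and 24.2% in TRAP and 38.0%, 38.0% and 37.4% in WCH, and here every library of the other 3 groups was below every WCH library.

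The share of Ywhah was 3.61% ± 0.563 in SynapTRAP and 3.97% ± 0.313 in SNF, against 6.45% ± 1.83 in TRAP and 5.81% ± 0.600 in WCH (SD, n = 3 each). The highest SynapTRAP library (4.11%) was below the lowest TRAP library (4.41%). Ywhab took 14.2% ± 1.39 in SynapTRAP and 15.6% ± 1.05 in SNF, against 11.0% ± 1.83 in TRAP and 13.5% ± 0.134 in WCH. Ywhag took 17.4% ± 2.02 in SynapTRAP and 13.99% ± 1.44 in SNF, against 16.6% ± 3.25 in TRAP and 13.8% ± 0.585 in WCH. Ywhaq took 2.91% ± 0.962 in SynapTRAP and 2.86% ± 0.472 in SNF, against 1.97% ± 0.402 in TRAP and 2.71% ± 0.560 in WCH. The 95% Wilson interval of a share of the 6 genes' counts in a single library was at most 2.70 percentage points wide and covers counting error only.

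**Figure D3:**
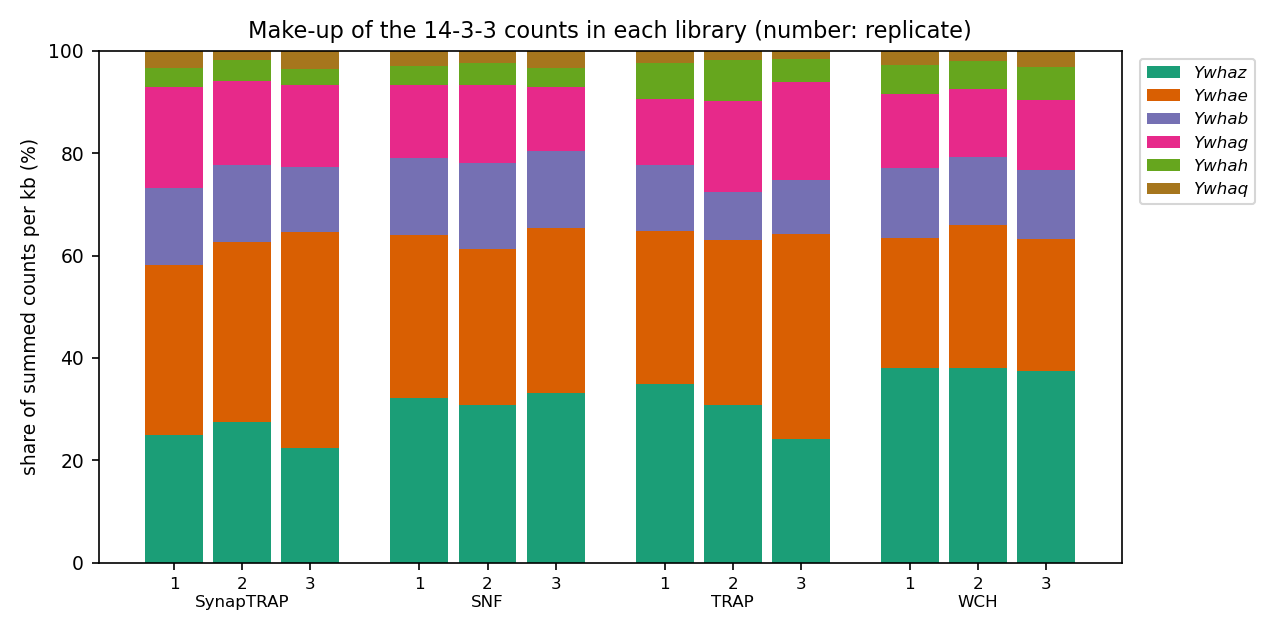
Share of each gene in the summed counts per kb of the 6 genes, in percent, for each of the 12 libraries (the number is the replicate). The Ywhaz segment is widest in the 3 WCH libraries (37.4% to 38.0%), and the Ywhae segment is narrowest there (25.4% to 27.9%).

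Ratios of a pair of paralogs were likewise taken within each library. The log2 ratio of Ywhae to Ywhaz, in counts per kb, was 0.41, 0.36 and 0.91 in SynapTRAP, against -0.02, -0.01 and -0.04 in SNF. It was -0.23, 0.07 and 0.72 in TRAP, against -0.58, -0.44 and -0.54 in WCH. No library of SynapTRAP overlapped SNF and none of TRAP or SNF overlapped WCH, with mean differences of 0.58 for SynapTRAP minus SNF, 0.71 for TRAP minus WCH and 0.50 for SNF minus WCH. SynapTRAP overlapped TRAP (difference of means 0.37). An exact two-sided permutation test of 3 libraries against 3 cannot go below 0.10, so none was run.

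Ywhag and Ywhah, the pair with the most similar coding sequence, were also compared in this way. Their log2 ratio was 2.40, 1.997 and 2.42 in SynapTRAP, against 1.93, 1.81 and 1.70 in SNF, and 0.89, 1.17 and 2.11 in TRAP, against 1.35, 1.33 and 1.08 in WCH. SynapTRAP was above SNF (difference of means 0.46) and SNF above WCH (0.56), while TRAP spread over both sides of WCH. The ratio of Ywhab to Ywhah was 2.02, 1.86 and 2.08 in SynapTRAP and 2.003, 1.96 and 1.97 in SNF, against 0.89, 0.23 and 1.27 in TRAP and 1.26, 1.33 and 1.07 in WCH. Both gradient groups lay above both others, with differences of means of 1.19 for SynapTRAP minus TRAP and 0.76 for SNF minus WCH.

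**Figure D4:**
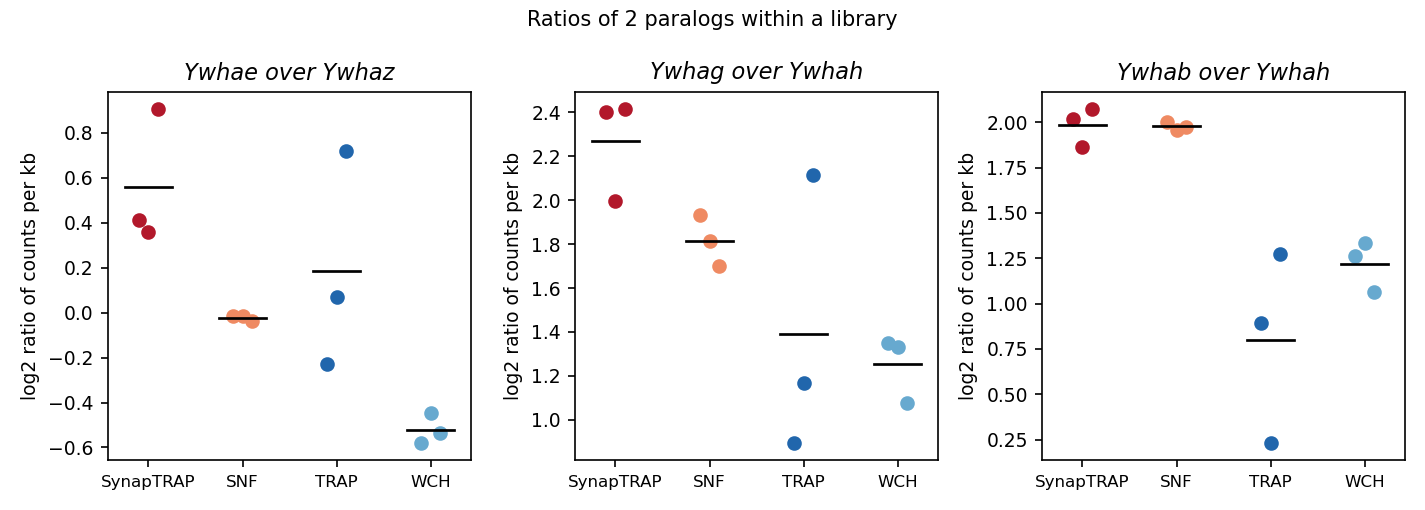
Log2 ratios of counts per kb of 3 pairs of paralogs within each library, with points for libraries and lines for group means, in the order SynapTRAP, SNF, TRAP and WCH. Ywhae over Ywhaz is lowest in WCH, and Ywhab over Ywhah is near 2 in the SynapTRAP and SNF libraries and at most 1.33 in the TRAP and WCH libraries.

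In the authors' deposited table of 275 genes called candidates for somatic translation, Ywhah was the only one of the 6 genes. The authors' deposited table gives it a log2 fold change of 0.47 for the pull-down (false discovery rate 0.104) and of -1.23 for the gradient column (false discovery rate 5.98e-05). None of the 6 genes stood in the authors' deposited table of 109 local translation candidates or in that of 3508 genes enriched by the column.

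Across the 12 libraries the 6 genes did not share 1 pattern. The Pearson correlation of log2 CPM was highest between Ywhah and Ywhaz (0.94) and between Ywhae and Ywhag (0.92), and lowest between Ywhag and Ywhaq (0.41). The 12 points share 4 group means, and within groups the 2 closest pairs had correlations of 0.71 and 0.54. Outside the family, the genes most like Ywhaz by the same measure were Eif4a2 (r = 0.99), which encodes an RNA helicase of translation initiation, Ido1 (0.98), which encodes an enzyme of tryptophan breakdown, and Stxbp5 (0.98), which encodes the synaptic release regulator tomosyn. For Ywhah they were Pak1 (0.98), a kinase of the actin cytoskeleton, Lancl2 (0.98) and Atp6v1c1 (0.98), a subunit of the vacuolar proton pump. For Ywhag they were Amph (0.98), which encodes the endocytic protein amphiphysin, Crmp1 (0.97), which encodes a collapsin response mediator, and Sin3b (0.97), which encodes a corepressor scaffold. For Ywhae they were Mical2 (0.96), an actin-oxidizing enzyme, Mrtfb (0.96), a coactivator of serum response factor, and Ppil2 (0.95). For Ywhab they were Atp6v1a (0.96), another proton pump subunit, Pja2 (0.95), a ubiquitin ligase, and Kif3a (0.95), a kinesin motor. Ywhaq had the weakest matches, with Palm2 (0.93), Rnf2 (0.93), a Polycomb ubiquitin ligase, and Itpa (0.92).

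Genes whose proteins are known 14-3-3 partners (59 listed, 57 tested) and kinases known to phosphorylate 14-3-3 binding sites (29 listed, 28 tested) were counted in the same fit. In SNF against WCH, 6 partners rose and 14 fell (median log2 fold change -0.48, against -0.25 over all tested genes), and 3 kinases rose and 8 fell (-0.46), where 20.6% of all tested genes rose and 16.5% fell. This balance depended on the scaling and on single libraries. With RLE size factors 8 partners rose and 10 fell, and 4 kinases rose and 4 fell. With scaling by neuron markers it was 4 and 6 partners and 1 and 3 kinases, and with total gene counts 0 and 53 partners and 0 and 27 kinases. In a fit of the 2 groups alone 11 partners rose and 20 fell. Without WCH replicate 1, 6 partners rose and 6 fell, and without SNF replicate 2 it was 5 and 8. Leaving out WCH replicate 1 also moved the scaling, with a median of -0.13 over all genes and 72.1% of all calls higher. The 11 kinase calls became 3 to 7 without any 1 SNF or WCH library, with the fewest without SNF replicate 1, and 7 without SynapTRAP replicate 1. Over all genes the calls were 4966 with all libraries, 3340 to 5517 with 1 library left out and 11452 with total gene counts.

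In SynapTRAP against SNF, 8 partners rose and 0 fell (median 0.43, against 0.03 over all tested genes), and 2 kinases rose and 0 fell (0.22), where 2.29% of all tested genes rose and 1.79% fell. These counts depended on single libraries, as did the calls over all genes (547 with all libraries, 55 to 952 with 1 library left out). No partner was called without SNF replicate 3 or without SynapTRAP replicate 1, 1 without SNF replicate 2, 3 without SNF replicate 1, 5 without WCH replicate 1 and 13 without SynapTRAP replicate 2. Of all genes, 24 rose and 43 fell without SNF replicate 3, and 19 rose and 43 fell without SynapTRAP replicate 1. It was 2 partners with scaling by neuron markers, 4 in the 2 groups alone and 57 with total gene counts. Over all genes 211, 261 and 12177 were called in these settings, in the same order. The kinases called were 0 with RLE size factors, with scaling by neuron markers and in the 2 groups alone, 27 with total gene counts, and 0 or 1 without any 1 of the 12 libraries.

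In SynapTRAP against TRAP, 7 partners rose and 8 fell (-0.03, against -0.02), and 5 kinases rose and 5 fell (-0.17), where 21.6% of all tested genes rose and 18.1% fell. With scaling by neuron markers it was 13 and 2 partners and 6 and 0 kinases, with total gene counts 2 and 35 partners and 0 and 18 kinases, and in the 2 groups alone 4 and 2 kinases. Over all genes 3759 rose and 606 fell with scaling by neuron markers, and 594 rose and 6403 fell with total gene counts. In TRAP against WCH, 8 partners rose and 4 fell (0.09, against -0.01), and 5 kinases rose and 6 fell (0.06), where 11.1% of all tested genes rose and 10.9% fell. With scaling by neuron markers it was 0 and 5 partners and 0 and 9 kinases, and with total gene counts 16 and 0 partners and 9 and 0 kinases. Over all genes 179 rose and 2714 fell with scaling by neuron markers, and 2862 rose and 231 fell with total gene counts. Without WCH replicate 3, 3 partners rose and 3 fell, and without WCH replicate 2, 1 kinase rose and 5 fell. Over all genes 755 rose and 863 fell without WCH replicate 3, and 652 rose and 832 fell without WCH replicate 2. No gene of either list was called for the difference of the pull-down effects in edgeR's test, against 2 of each list in DESeq2, 1 of each with the replicate block, 2 kinases with no expression filter, 1 kinase without SynapTRAP replicate 2, and 43 partners and 21 kinases with total gene counts. Over all genes the calls were 116 in edgeR's test, 575 in DESeq2, 366 with the replicate block and 6329 with total gene counts.

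Crtc1 and Hdac5, which encode a coactivator of CREB and a histone deacetylase that 14-3-3 proteins can hold in the cytoplasm, were higher in both pull-downs. Hdac5 had 157 ± 64.7 CPM in SynapTRAP, against 53.0 ± 7.44 in SNF (log2 fold change 1.57, SE 0.29, adjusted p = 0.00676), and 81.7 ± 27.2 CPM in TRAP, against 31.2 ± 3.87 in WCH (1.39, SE 0.29, adjusted p = 0.00211). Crtc1 had 191 ± 35.7 CPM in SynapTRAP, against 72.6 ± 9.59 in SNF (1.39, SE 0.31, adjusted p = 0.0172), and 128 ± 76.4 CPM in TRAP, against 54.6 ± 12.7 in WCH (1.22, SE 0.31, adjusted p = 0.00764). These calls were less firm than their size. In TRAP against WCH, Crtc1 was at 0.66 without TRAP replicate 3 (adjusted p = 0.0858). It was at 1.08 without WCH replicate 3 (adjusted p = 0.0524). In SynapTRAP against SNF, Hdac5 was not called without SNF replicate 3 or SynapTRAP replicate 1 (1.47 and 1.26). Crtc1 was not called there without any 1 SNF library or SynapTRAP replicates 1 or 3 (1.26 to 1.51). With scaling by neuron markers, TRAP against WCH gave 0.88 for Hdac5 (adjusted p = 0.0572) and 0.67 for Crtc1 (adjusted p = 0.14).

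Irs2, an adaptor of the insulin receptor, had 30.2 ± 7.43 CPM in TRAP, against 13.6 ± 0.142 in WCH (1.15, SE 0.24, adjusted p = 0.00211), with 0.66 under scaling by neuron markers (adjusted p = 0.0699). Sgk3, a kinase related to Akt, and Cdkn1b, a cell cycle inhibitor, fell in TRAP against WCH (-1.32, adjusted p = 0.00649, and -1.18, adjusted p = 0.0107). Sgk3 was not called without WCH replicate 1 (-1.07) and Cdkn1b not without TRAP replicate 3 (-0.88). Neither was called with total gene counts as scaling (-0.75 for Sgk3 and -0.59 for Cdkn1b). Sik1, a kinase of the salt-inducible family, was higher in SynapTRAP, at 6.99 ± 2.28 CPM, against 2.33 ± 1.02 CPM in SNF (1.56, SE 0.42, adjusted p = 0.0382), a call that was lost in 13 of the alternatives tried.

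Wwtr1, the Hippo pathway coactivator TAZ, showed the largest rise among the named partners. It had 23.2 ± 6.16 CPM in SynapTRAP, against 2.81 ± 0.780 in TRAP (3.04, SE 0.31, adjusted p = 4.99e-07), and 24.9 ± 5.29 CPM in SNF, against 6.29 ± 1.87 in WCH (1.99, SE 0.30, adjusted p = 3.15e-05). It was lower in TRAP than in WCH (-1.15, adjusted p = 0.0115), but not past the threshold without WCH replicate 3 (-0.88) or TRAP replicate 2 (-0.97). With total gene counts as scaling this fall was -0.57 and not called (adjusted p = 0.302). Gabbr1, a subunit of the GABA-B receptor, had 541 ± 101 CPM in SNF, against 172 ± 18.5 in WCH (1.66, SE 0.26, adjusted p = 5.16e-05), and Kcnk3, a potassium channel, had 28.1 ± 8.63 CPM in SNF, against 9.41 ± 1.19 in WCH (1.58, SE 0.31, adjusted p = 0.000403). With total gene counts as scaling, which counts mitochondrial RNA, the changes of Wwtr1, Gabbr1 and Kcnk3 in SNF against WCH turned to -0.34, -0.68 and -0.79, while the median of all genes moved to -2.60. The glial marker values given for SNF and SynapTRAP stand beside these rises too, and their part in them was not tested.

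Among falls with the gradient, Ndel1, the dynein regulator named above, had 9.39 ± 1.78 CPM in SNF, against 20.6 ± 3.36 in WCH (-1.13, SE 0.28, adjusted p = 0.00331), and 9.52 ± 2.44 CPM in SynapTRAP, against 24.2 ± 5.82 in TRAP (-1.36, SE 0.26, adjusted p = 0.000402). Prkaa2, a catalytic subunit of AMP-activated kinase, had 30.7 ± 5.04 CPM in SNF, against 72.1 ± 3.06 in WCH (-1.23, SE 0.22, adjusted p = 0.000156). Crtc2, a paralog of Crtc1, fell in SNF against WCH (-1.26, adjusted p = 0.0233). The call was lost without any 1 WCH library or SNF replicates 1 or 2 (-1.24 to -1.002). Scaling by neuron markers also lost it (-1.20, adjusted p = 0.0807). Cby1, an antagonist of beta-catenin, fell in SynapTRAP against TRAP (-1.30, adjusted p = 0.00139), with -0.86 under scaling by neuron markers (adjusted p = 0.0816). Kif1c, a kinesin, and Prkd3, a protein kinase D, rose there (2.14, adjusted p = 1.83e-05, and 1.85, adjusted p = 0.000293). Prkd3 was not called with total gene counts as scaling (0.90).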

How the data were processed

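Cortex RNA was measured in 12 libraries, 3 per group, per the labels, with NuGEN cDNA. The tools named in the submitters' processing notes are Bowtie2, STAR, HTSeq and edgeR. The sources used here give no version, genome build, annotation or strand setting. The authors deposited whole-number counts per gene for 29879 genes, with 5 summary lines that held 19.3% to 58.3% of the reads and were left out here. Another 3 deposited tables list genes the authors selected, with log2 fold changes and p-values, per the file headers.

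Computed here: edgeR 4.0.16 (R 4.3.3) was fitted to all 12 libraries with group means, TMM scaling and the default expression filter (13404 genes), followed by the robust quasi-likelihood test and Benjamini-Hochberg adjustment over all tested genes, called under 0.05. Every adjusted p in the text is from this fit unless DESeq2 (1.42.0), another setting or the authors' table is named. Log2 CPM used a prior count of 2. Symbols, exon lengths and coordinates came from GENCODE M21 (28758 identifiers matched), and coding sequences were aligned with MAFFT 7.526. The fit was also run on simulated counts in which all libraries shared the same composition, apart from genes changed in TRAP. That simulation cannot show how the scaling copes with the compositions here, where mitochondrial RNA took 0.930% to 87.3% of gene counts. The members, gene lists and tests were chosen with earlier results of these data known. All 6 members are named; of the partner and kinase lists, the 3 called genes with the largest rise and fall whose groups did not overlap are named in each contrast. The value of 1 gene that this rule picked is not reported here. Genes most like a member are the 3 with the highest Pearson correlation. Alternatives were RLE size factors, total-count scaling, TMM without the mitochondrial genome, no filter, DESeq2, fits of the compared groups alone, a replicate block, each library left out, and scaling by neuron markers, which was added after seeing the data.

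Replicate numbers come from the sample titles, which do not say what they mark. Same-numbered deviations from group means correlated at 0.218 to 0.379 between SynapTRAP and SNF and at 0.104 to 0.144 between SynapTRAP and TRAP. These were taken as pairing. The values of -0.0149 to 0.0634 between TRAP and WCH and of 0.0651 to 0.165 between SNF and WCH were not. Still, every same-numbered pair of SNF and WCH lay above every differently numbered pair of these groups (-0.113 to 0.0268). The replicate number may therefore pair SNF with WCH too.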

Additional observations from a re-analysis of the deposited data

How the results depend on the processing

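The falls of Ywhah and Ywhaz in SNF against WCH and in SynapTRAP against TRAP kept their direction and call under each alternative run. The number of the 6 genes called was 1 in TRAP against WCH (3 with total-count scaling, 2 in DESeq2 and in the 2 groups alone, 0 with no filter and with neuron scaling; 0 to 2 with 1 library left out), 4 in SNF against WCH (2 with RLE; 2 to 5), 0 in SynapTRAP against SNF (6 with total counts; 0 to 0), 4 in SynapTRAP against TRAP (2 with neuron scaling and in the 2 groups alone; 2 to 5) and 0 for the difference of pull-down effects (4 with total counts). Over all genes, SNF against WCH gave 4966 calls (11452 with total counts; 3340 to 5517) and TRAP against WCH 2947 (1484 to 3626). SynapTRAP against TRAP gave 5331 (4365 to 5613). SynapTRAP against SNF gave 547 (12177 with total counts, 887 with no filter, 991 in DESeq2, 211 with neuron scaling, 261 in the 2 groups alone; 55 to 952), and the difference gave 116 (6329, 512, 575 and 28 in the same order, with no fit of 2 groups; 0 to 444). The replicate block gave 834 calls in SynapTRAP against SNF and 366 for the difference, and it changed no call or sign of the 6 genes. Total-count scaling, in which mitochondrial RNA counts, moved the median of all genes to 0.56 in TRAP against WCH, to -2.60 in SNF against WCH, to 1.98 in SynapTRAP against SNF, to -0.9998 in SynapTRAP against TRAP and to 1.46 for the difference. Neuron scaling moved it to -0.47 in TRAP against WCH and to 0.39 in SynapTRAP against TRAP. The share of higher calls in TRAP against WCH was 50.5% (92.5% with total counts, 6.19% with neuron scaling) and in SynapTRAP against TRAP 54.4% (8.49% and 86.1%). It was 55.5% in SNF against WCH (67.7% with RLE, 67.2% in DESeq2, 0.0961% with total counts, 73.0% with neuron scaling), 56.1% in SynapTRAP against SNF (33.6%, 36.02%, 99.95% and 28.4% in that order) and 58.6% for the difference (33.6%, 30.3%, 100% and 100%). Signs of the 6 genes turned only in values that were not called with TMM scaling. In TRAP against WCH these were Ywhaq (0.42) and Ywhaz (0.53) with total counts and Ywhab (-0.47) with neuron scaling; with 1 library left out, Ywhab ran from -0.071 to 0.22, Ywhaq from -0.32 to 0.0026 and Ywhaz from -0.13 to 0.045. In SynapTRAP against SNF they were Ywhaz with total counts (1.92) and Ywhab and Ywhah with neuron scaling (-0.013 and -0.018); with 1 library left out, Ywhab ran from -0.038 to 0.24, Ywhah from -0.10 to 0.28 and Ywhaz from -0.31 to 0.0066. In SynapTRAP against TRAP it was Ywhaq with neuron scaling (0.18). For the difference of pull-down effects they were Ywhab with RLE and DESeq2 (-0.037 each), Ywhae, Ywhag, Ywhah and Ywhaz with total counts (1.198, 1.43, 1.12 and 1.39) and Ywhae, Ywhag and Ywhaz with neuron scaling (0.17, 0.33 and 0.25); with 1 library left out, Ywhab ran from -0.21 to 0.22, Ywhag from -0.33 to 0.065 and Ywhaz from -0.26 to 0.050. Causes were not tested. Not divided by exon length, the share of Ywhae averaged 26.1% in SynapTRAP, 22.1% in SNF, 23.7% in TRAP and 18.1% in WCH, and that of Ywhaz 28.3%, 36.03%, 33.4% and 41.6% in those groups. Fits without 1 library leave 2 in a group and assume that its spread is that of all groups. Each of them also redid the filter and the TMM scaling. The median of all genes in SNF against WCH then ran from -0.27 (without SNF replicate 3) to -0.13 (without WCH replicate 1). A call lost or gained in such a fit can thus follow the scaling as well as the library's values. With 100 to 178 counts in SNF, Ywhaq is the gene whose values rest on the fewest reads.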
